A study of Mus musculus with 24 samples.

Results

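Gdf15 and 9 further genes of the integrated stress response (Atf4, Atf5, Ddit3, Ddit4, Trib3, Chac1, Asns, Sesn2 and Ppp1r15a) were followed in SIM-A9 cells, a mouse microglial line. The 10 genes were chosen by symbol from the 54838 genes of a table of read counts, and all 10 were among the 13116 genes with enough counts to be tested. The choice was made with results of the same libraries known. Gdf15 had been named for its difference between (GT)6 SWCNT and control libraries, and Ddit4 for its difference between Fura-2 and control libraries. Those values, and the 2 other comparisons of Gdf15 that hold the (GT)6 SWCNT libraries, are therefore given as descriptions with no test. The same control libraries serve in every other comparison with control. The tests of Gdf15 and Ddit4 there are thus not independent of the choice. Which other values entered the choice is not recorded.

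The study set probes used in neuroscience against untreated cells, with lipopolysaccharide (LPS), a bacterial trigger of inflammation, as its positive control. There were 24 poly-A RNA libraries, 3 in each of 8 groups: untreated control, LPS, (GT)6 SWCNT (a single-walled carbon nanotube carrying a short GT-repeat DNA), COOH SWCNT (a carboxylated single-walled carbon nanotube), Fura-2 (a calcium indicator dye), DiBASC2 and Di-2-ANEPEQ (voltage-sensitive dyes, spelled as in the titles) and AAV (the usual abbreviation of adeno-associated virus). All groups, the control included, were SIM-A9 cells on plates that had spent 2 h in 270 uL of medium free of serum. Each treatment was 30 uL of a 10-fold concentrate, and RNA was taken 2 h after it was added; the final doses are not given in the sources used here. Nothing in the labels says that the 3 libraries of a group came from separate cultures. The p-values below therefore measure only the spread between libraries, which may be technical. In such bulk RNA, fewer expressing cells and less RNA per cell cannot be told apart.

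Library totals ran from 17364272 to 29259221 counts, with (GT)6 SWCNT replicate 3 at the low end. All 14 microglia and macrophage markers examined exceeded 1 CPM (counts scaled to a library size of 1000000) in every group, and their summed level was 3017 to 3294 CPM over all libraries. The homeostatic microglia markers P2ry12 (1.54 to 3.26 CPM) and Tmem119 (2.75 to 5.32 CPM) were low, while Csf1r, the receptor of macrophage colony-stimulating factor, stood at 461 to 553 CPM. Of 16 markers of other brain cell types only Mbp exceeded 1 CPM (3.04 to 5.43 CPM), and Syt1, Mog, Cldn5 and Dcn had 0 counts in all 24 libraries. Sequencing index numbers were consecutive within each group, so library order and treatment cannot be told apart.

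The integrated stress response starts when a kinase (PERK, GCN2, PKR or HRI) phosphorylates the translation initiation factor eIF2. Most protein synthesis then slows, while the mRNA of the transcription factor ATF4 is translated more. ATF4 and its partner and target CHOP (encoded by Ddit3) raise genes of amino acid supply, redox balance and cell fate, and GADD34 (Ppp1r15a) closes the loop by directing a phosphatase to eIF2. Because ATF4 is controlled largely at translation, the Atf4 transcript is only a partial reading of the pathway. GDF15 is a secreted cytokine of the TGF-beta superfamily that cells release under many stresses, and its gene is also a target of p53. In microglia and macrophages the pathway is known to be engaged by pathogens, nutrient shortage and oxidative stress.

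Chac1 and Asns are textbook ATF4 targets with a composite C/EBP and ATF element, so the letters around their start sites show what was searched for. The windows of RefSeq (GRCm38.p6; 250 bases before to 50 bases after each start, 12 windows for the 10 genes) were searched on both strands for TGATGNAA, the core of that element, and for TGACGTCA, the palindrome of the cyclic AMP response element; these patterns do not overlap each other. Chac1, Asns and Trib3 held the first pattern and Ppp1r15a held the second, and 8 windows held neither. Of 32851 windows of the same length, 3.97% held TGATGNAA and 1.79% held TGACGTCA. Each sequence is written 5′ to 3′ on the gene's own strand, and capitals mark the matched letters. The match lay at position -193 in Chac1 (chr2:119350992-119351241, plus strand, pattern on the minus strand), at -23 in Asns (chr6:7693210-7693459, minus strand), at -12 in Ppp1r15a (chr7:45526269-45526518, minus strand) and 15 bases after the start in Trib3 (chr2:152344028-152344057, minus strand, the 30 bases around the match). Gdf15 (chr8:70632457-70632706, minus strand) is shown because most of the values below turn on it, and its lower case says only that these letters were not found in this window.
Chac1: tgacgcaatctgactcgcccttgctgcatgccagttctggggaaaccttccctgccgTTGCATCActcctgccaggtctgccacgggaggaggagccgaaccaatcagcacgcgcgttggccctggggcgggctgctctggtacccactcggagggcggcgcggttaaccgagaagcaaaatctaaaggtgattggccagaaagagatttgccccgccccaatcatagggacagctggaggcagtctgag
Asns: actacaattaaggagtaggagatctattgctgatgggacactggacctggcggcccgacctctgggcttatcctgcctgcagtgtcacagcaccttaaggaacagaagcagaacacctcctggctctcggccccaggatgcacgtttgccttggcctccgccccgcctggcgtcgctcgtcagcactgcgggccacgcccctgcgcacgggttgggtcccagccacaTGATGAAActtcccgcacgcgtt
Ppp1r15a: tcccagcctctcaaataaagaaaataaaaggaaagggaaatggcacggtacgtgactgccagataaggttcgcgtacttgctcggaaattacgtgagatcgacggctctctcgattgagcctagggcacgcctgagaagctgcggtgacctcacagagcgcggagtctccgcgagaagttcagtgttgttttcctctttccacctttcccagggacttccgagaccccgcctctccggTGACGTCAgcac
Trib3: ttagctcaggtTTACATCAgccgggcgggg
Gdf15: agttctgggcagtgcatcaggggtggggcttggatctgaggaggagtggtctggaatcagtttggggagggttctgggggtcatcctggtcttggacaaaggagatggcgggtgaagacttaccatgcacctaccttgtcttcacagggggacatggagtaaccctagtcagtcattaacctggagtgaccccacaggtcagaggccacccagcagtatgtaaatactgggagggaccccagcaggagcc

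The 10 genes differed widely in their level in untreated cells. Per kilobase of exon, the control level was highest for Atf4, at 120.3 ± 5.28 CPM per kb (mean ± SD, n = 3), and next for Asns, at 31.4 ± 0.790 CPM per kb. Ddit4 (9.24 ± 1.05), Ppp1r15a (8.33 ± 0.369) and Atf5 (7.87 ± 0.235) formed a middle tier in CPM per kb. Sesn2 (3.34 ± 0.369), Trib3 (2.25 ± 0.170), Gdf15 (2.15 ± 0.297) and Ddit3 (1.95 ± 0.188) were lower in the same unit, and Chac1 was lowest at 0.508 ± 0.0780 CPM per kb. With LPS, Gdf15 stood at 45.9 ± 6.90 CPM per kb, above the control level of every listed gene but Atf4. All CPM values that follow are not divided by length and compare 1 gene across libraries. The plot of levels by library shows all 10 genes on this scale.

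**Figure D1:**
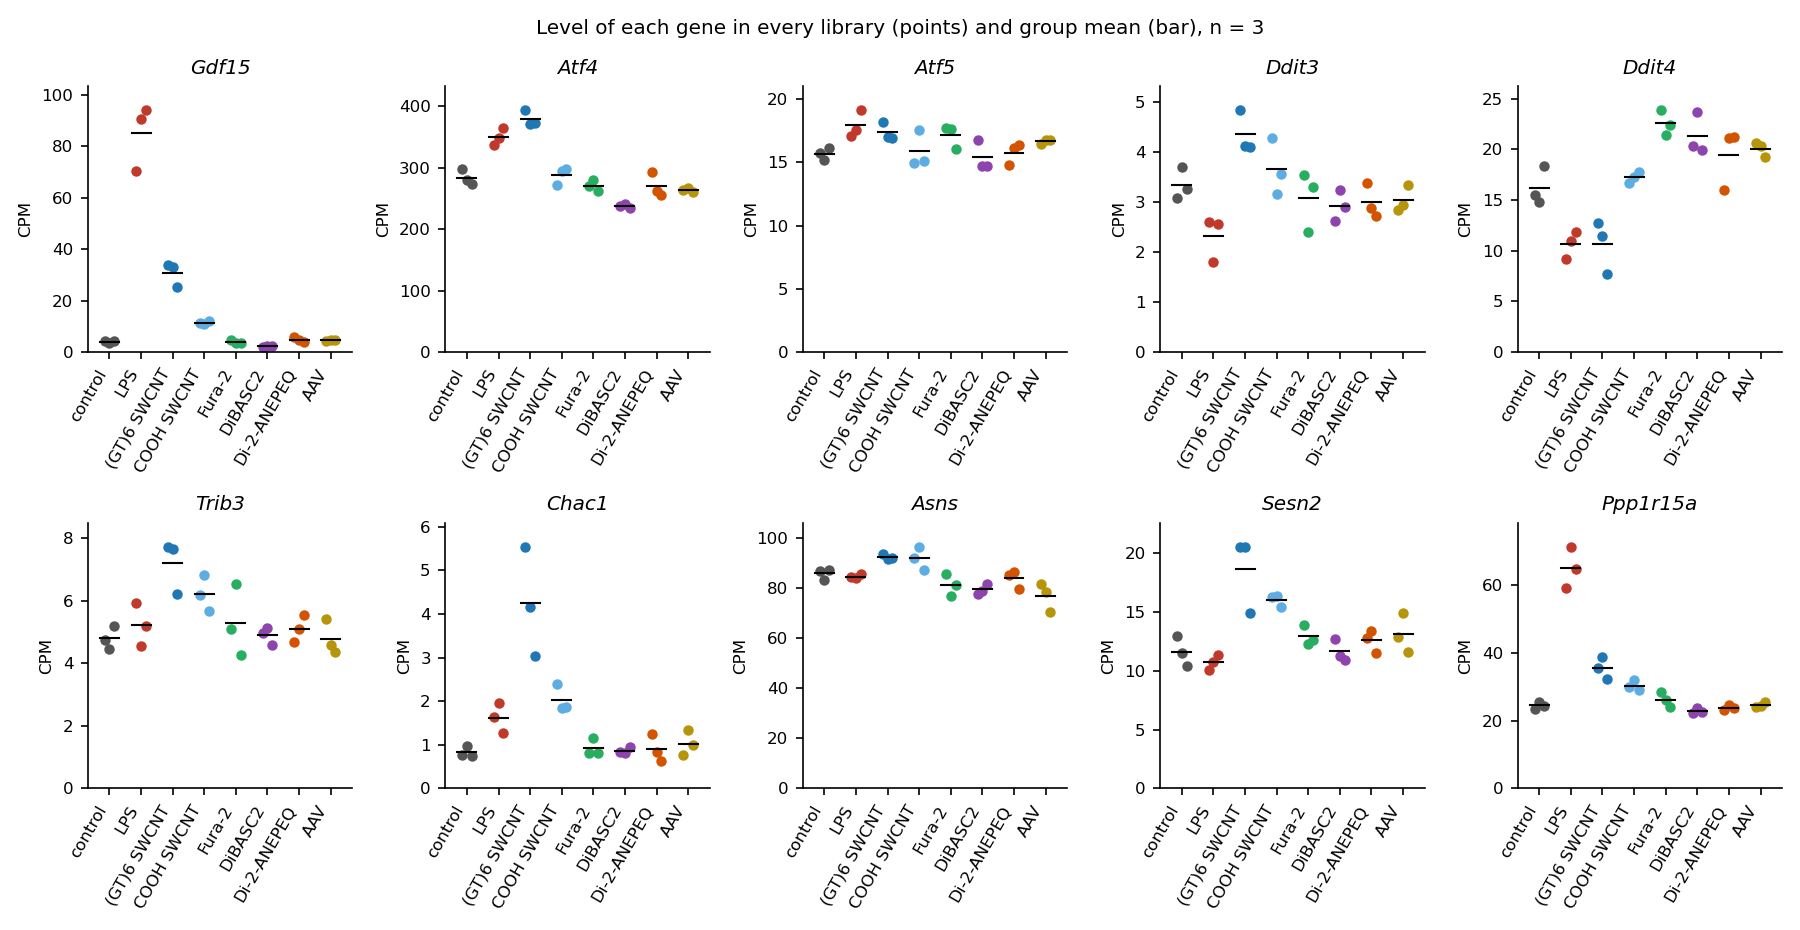
CPM of each of the 10 genes (1 panel per gene, axis from 0) in the 24 libraries, by group, with 1 point per library and a bar at each group mean. Gdf15 stepped down from 70.4 to 94.1 CPM with LPS, through 25.4 to 34 with (GT)6 SWCNT and 10.9 to 11.9 with COOH SWCNT, to 3.36 to 4.38 in control libraries, while Asns stayed between 70.7 and 96.7 CPM in all libraries.

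Gdf15 (ENSMUSG00000038508.7; GRCm38 chromosome 8, 70629393 to 70632456, minus strand) was the member with the widest range. The control libraries held 4.23, 3.36 and 4.38 CPM for replicates 1, 2 and 3, the order used throughout. LPS libraries held 70.4, 90.7 and 94.1 CPM. The (GT)6 SWCNT libraries held 34, 33.2 and 25.4 CPM, and the COOH SWCNT libraries held 11.2, 10.9 and 11.9 CPM. Each of these 3 treatments lay wholly above the control libraries, and none overlapped another. The transcript was 21.6-fold higher with LPS than in control libraries, a log2 difference of 4.43 ± 0.13 (SE, adjusted p = 1.35e-26) by edgeR's quasi-likelihood test with Benjamini-Hochberg adjustment. With COOH SWCNT it was 2.88-fold higher, a log2 difference of 1.53 ± 0.16 (SE, adjusted p = 1.93e-09). With (GT)6 SWCNT the log2 difference was 2.98 ± 0.14 (SE), or 7.88-fold, which is a description because this value named the gene.

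In the dye and AAV libraries Gdf15 stayed near or below the control level. DiBASC2 libraries held 1.76, 2.22 and 2.44 CPM, all below the lowest control library. The fall was 1.85-fold, with a log2 difference of -0.89 ± 0.21 (SE, adjusted p = 0.00726); without DiBASC2 replicate 1 it was -0.77 and the call was lost (adjusted p = 0.0511). Fura-2 libraries held 4.72, 3.62 and 3.46 CPM, Di-2-ANEPEQ libraries 5.76, 4.61 and 3.92 CPM and AAV libraries 4.23, 4.76 and 4.65 CPM. These 3 groups overlapped the control libraries. The 95% intervals of their log2 differences from control were -0.41 to 0.40 for Fura-2, -0.09 to 0.67 for Di-2-ANEPEQ and -0.18 to 0.58 for AAV. From highest to lowest mean the order was LPS, (GT)6 SWCNT, COOH SWCNT, Di-2-ANEPEQ, AAV, control, Fura-2 and DiBASC2. Di-2-ANEPEQ overlapped AAV, AAV overlapped control and control overlapped Fura-2, while the other neighbours in this order did not overlap.

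Among the transcription factors, Atf4, the central activator of the pathway, rose with LPS and with (GT)6 SWCNT and fell with DiBASC2. Atf4 (ENSMUSG00000042406.8; chromosome 15, 80255184 to 80257541, plus strand) stood at 298, 279 and 274 CPM in control libraries. It stood at 337, 349 and 364 CPM with LPS and at 394, 372 and 372 CPM with (GT)6 SWCNT. The (GT)6 SWCNT libraries were all above the LPS libraries, which were all above the control libraries. The log2 difference from control was 0.30 ± 0.04 (SE, adjusted p = 7.99e-07) for LPS and 0.42 ± 0.04 (SE, adjusted p = 1.34e-09) for (GT)6 SWCNT, so the rises were 1.23-fold and 1.34-fold. COOH SWCNT libraries held 271, 295 and 298 CPM and overlapped the control libraries, with a log2 difference of 0.02 ± 0.04 and a 95% interval of -0.07 to 0.12. DiBASC2 libraries held 237, 241 and 234 CPM, all below control, at a log2 difference of -0.26 ± 0.04 (SE, adjusted p = 0.000225). The Fura-2 libraries held 269, 279 and 261 CPM, the Di-2-ANEPEQ libraries 293, 262 and 255 CPM and the AAV libraries 264, 267 and 261 CPM. None of these 3 groups passed the test, and the AAV libraries alone among them lay wholly below control.

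Ddit3, the gene of CHOP, was lower with LPS. Ddit3 (ENSMUSG00000025408.15; chromosome 10, 127290774 to 127296288, plus strand) stood at 3.08, 3.70 and 3.26 CPM in control libraries, at 2.61, 1.81 and 2.57 CPM with LPS and at 4.85, 4.13 and 4.10 CPM with (GT)6 SWCNT. The LPS libraries were all below and the (GT)6 SWCNT libraries all above the control libraries. The log2 difference with LPS was -0.53 ± 0.18 (SE, adjusted p = 0.0242); it was -0.44 (adjusted p = 0.141) without control replicate 2 and -0.37 (adjusted p = 0.188) without LPS replicate 2. With (GT)6 SWCNT it was 0.38 ± 0.16, which did not pass the test (adjusted p = 0.0988). In the other 5 treatments the group means lay between 2.92 (DiBASC2) and 3.67 CPM (COOH SWCNT), and no difference passed. The gene shares exon bases with Gm4189 and Mars on the other strand. A second Ddit3 model on the same strand had 0 counts in all libraries. The strand setting of the counting is not given in the sources used here, so part of these counts could belong to the partners.

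Atf5, a relative of ATF4 that is known for the mitochondrial stress response, passed in no comparison. Atf5 (ENSMUSG00000038539.15; chromosome 7, 44812256 to 44816658, minus strand) ran from 15.4 CPM with DiBASC2 to 17.9 CPM with LPS as group means. LPS libraries held 17.1, 17.5 and 19.1 CPM against 15.7, 15.2 and 16.1 CPM in control, which did not overlap. That log2 difference of 0.20 ± 0.08 fell short of the threshold (adjusted p = 0.0546), and passed it with DESeq2's size factors (adjusted p = 0.0405). Nup62 and Il4i1 share exon bases with Atf5 on the other strand.

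Of the genes that act back on the pathway, Ppp1r15a rose with LPS and with both nanotubes. Ppp1r15a, whose product GADD34 brings protein phosphatase 1 to eIF2, lies on chromosome 7 (ENSMUSG00000040435.12; 45522916 to 45526268, minus strand). Its control libraries held 23.5, 25.6 and 24.4 CPM and its LPS libraries 59.2, 71.3 and 64.8 CPM. The (GT)6 SWCNT libraries held 35.4, 38.9 and 32.4 CPM and the COOH SWCNT libraries 29.9, 31.9 and 29.1 CPM. None of these 4 groups overlapped another, and they ranked in the order LPS, (GT)6 SWCNT, COOH SWCNT and control. The log2 difference from control was 1.41 ± 0.07 (SE, adjusted p = 2.96e-19) with LPS, a rise of 2.66-fold. It was 0.54 ± 0.07 (SE, adjusted p = 2.37e-07) with (GT)6 SWCNT and 0.30 ± 0.07 (SE, adjusted p = 0.00236) with COOH SWCNT. The dye and AAV group means of 22.8 to 26.1 CPM were near the control mean of 24.5 ± 1.08 CPM, and no difference passed. Only 12 exon bases of the gene are shared with Tulp2 on the other strand.

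Trib3, a pseudokinase that binds ATF4 and CHOP and dampens their activity, rose with (GT)6 SWCNT. Trib3 (ENSMUSG00000032715.9; chromosome 2, 152337422 to 152344032, minus strand) stood at 7.72, 7.65 and 6.21 CPM in the (GT)6 SWCNT libraries against 4.73, 4.47 and 5.18 CPM in control. The groups did not overlap, and the log2 difference was 0.60 ± 0.14 (SE, adjusted p = 0.00113). COOH SWCNT libraries held 6.18, 6.81 and 5.68 CPM, also all above control, but their log2 difference of 0.38 ± 0.14 missed the threshold (adjusted p = 0.0519). Over its alternatives the adjusted p ran from 0.0346 without COOH SWCNT replicate 3 to 0.176 without control replicate 2. LPS libraries held 5.92, 4.54 and 5.19 CPM and overlapped the control libraries, with a 95% interval of -0.19 to 0.43 for the log2 difference.

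Of the members other than Gdf15, Chac1 had the largest fold change with both nanotubes. CHAC1 is an enzyme that degrades glutathione. Chac1 (ENSMUSG00000027313.3; chromosome 2, 119351229 to 119354381, plus strand) rested on few reads: 14, 23 and 14 counts in control libraries and 135, 97 and 52 in (GT)6 SWCNT libraries. In CPM these were 0.769, 0.979 and 0.748 and 5.54, 4.17 and 3.05. COOH SWCNT libraries held 2.39, 1.85 and 1.86 CPM and LPS libraries 1.63, 1.95 and 1.26 CPM. All 3 groups lay above control, and (GT)6 SWCNT lay above the other two. The rise was 5.11-fold with (GT)6 SWCNT, a log2 difference of 2.35 ± 0.26 (SE, adjusted p = 3.54e-09), and 2.43-fold with COOH SWCNT, a log2 difference of 1.28 ± 0.28 (SE, adjusted p = 0.00101). With LPS the log2 difference was 0.93 ± 0.30 (SE, adjusted p = 0.0172). That call was lost without control replicate 1 (adjusted p = 0.0513), without control replicate 3 (0.0589) or without LPS replicate 2 (0.103). No dye or AAV group passed, at means of 0.858 to 1.03 CPM.

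Sesn2 rose with both nanotubes and did not pass with LPS. Sestrin 2 is an antioxidant protein that senses leucine and restrains mTORC1, and its gene (ENSMUSG00000028893.8) lies on chromosome 4 (132492032 to 132510501, minus strand). Control libraries held 13, 11.5 and 10.4 CPM. The (GT)6 SWCNT libraries held 20.5, 20.6 and 14.9 CPM and the COOH SWCNT libraries 16.3, 16.3 and 15.4 CPM, in both cases all above control. LPS libraries held 10.1, 10.7 and 11.4 CPM and overlapped the control libraries. The log2 difference from control was 0.70 ± 0.10 (SE, adjusted p = 1.84e-06) for (GT)6 SWCNT and 0.46 ± 0.10 (SE, adjusted p = 0.00131) for COOH SWCNT. For LPS it was -0.11 ± 0.11, with a 95% interval of -0.35 to 0.13.

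Ddit4, which encodes the mTORC1 inhibitor REDD1, fell with LPS and (GT)6 SWCNT and rose with DiBASC2. Ddit4 (ENSMUSG00000020108.4; chromosome 10, 59949669 to 59951834, minus strand) stood at 15.5, 14.9 and 18.3 CPM in control libraries. It was lower in LPS libraries, at 9.13, 10.9 and 11.8 CPM, and in (GT)6 SWCNT libraries, at 12.7, 11.5 and 7.68 CPM. Neither group overlapped control, and the groups overlapped each other. The log2 differences were -0.60 ± 0.12 (SE, adjusted p = 0.000231) and -0.58 ± 0.12 (SE, adjusted p = 0.000507). COOH SWCNT libraries held 16.7, 17.3 and 17.8 CPM, which overlapped control (95% interval of the log2 difference -0.15 to 0.33). The Fura-2 libraries, whose value named this gene, held 23.9, 21.4 and 22.4 CPM, all above control, at a log2 difference of 0.48 ± 0.11 (SE), with no test. DiBASC2 libraries held 20.3, 23.7 and 19.9 CPM and rose by a log2 difference of 0.40 ± 0.11 (SE, adjusted p = 0.0215); the call was lost without control replicate 1 (0.103), control replicate 2 (0.125) or DiBASC2 replicate 2 (0.148), and with DESeq2 (0.0644). AAV libraries held 20.6, 20.3 and 19.3 CPM, all above control, and Di-2-ANEPEQ libraries 16.0, 21.1 and 21.3 CPM, which overlapped it. Their log2 differences of 0.31 ± 0.11 (adjusted p = 0.0856) and 0.26 ± 0.11 (adjusted p = 0.22) did not pass.

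Asns, the enzyme that makes asparagine, passed in no comparison. Asns (ENSMUSG00000029752.12; chromosome 6, 7675169 to 7693254, minus strand) held 87.1, 83.5 and 87.4 CPM in control libraries and 93.9, 91.7 and 92.1 CPM with (GT)6 SWCNT. The latter were all higher, by a log2 difference of 0.11 ± 0.05 (adjusted p = 0.121). LPS libraries held 84.4, 84.2 and 85.7 CPM, with a 95% interval of -0.12 to 0.08. The lowest were the AAV libraries, at 81.9, 78.5 and 70.7 CPM and a log2 difference of -0.16 ± 0.05 (adjusted p = 0.051).

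**Figure D2:**
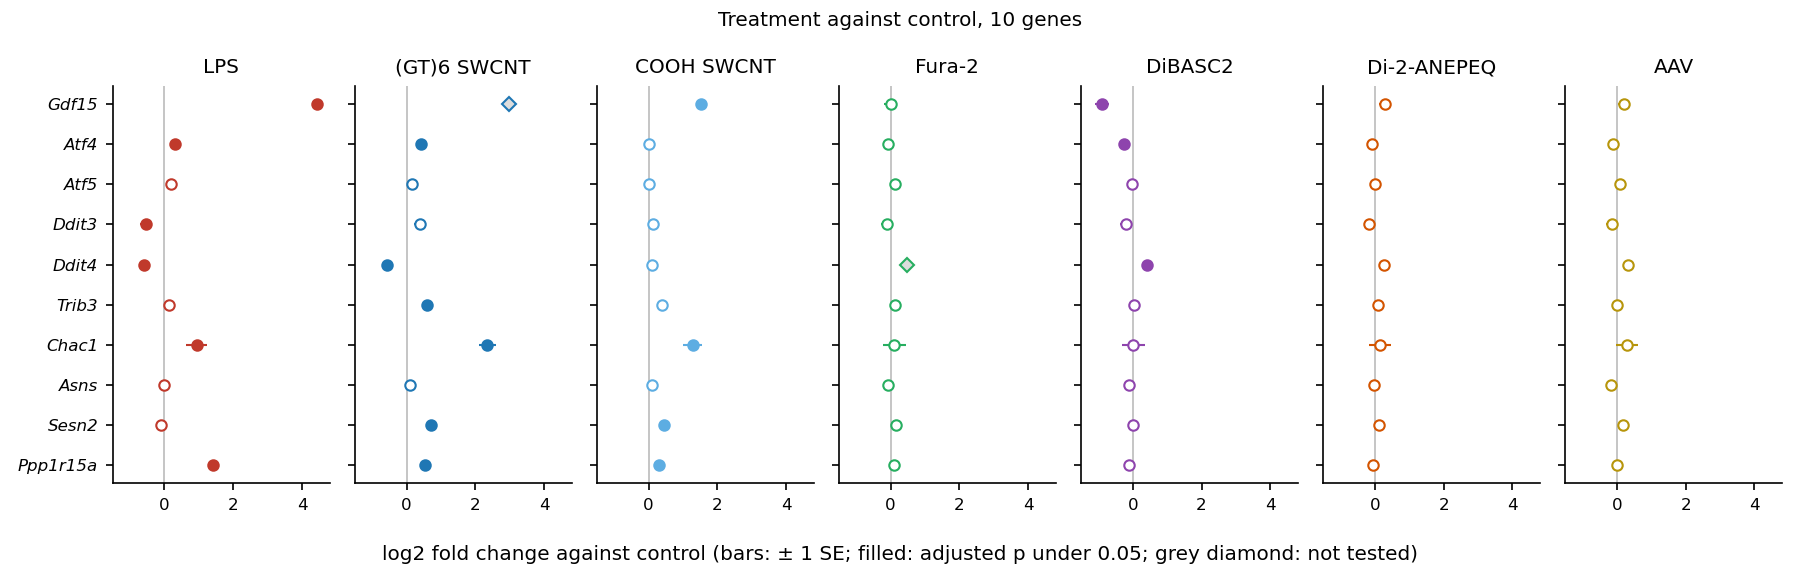
Log2 fold change against control of the 10 genes in the 7 treatments (1 panel each; points, with bars of ± 1 SE); filled points have an adjusted p under 0.05, open points do not, and grey diamonds carry no test. Gdf15 ranges from 4.43 with LPS to -0.89 with DiBASC2, and the Fura-2, Di-2-ANEPEQ and AAV panels hold no filled point.

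Counted over the list, the treatments differed in how many members moved and which way. All comparisons with control share the same 3 control libraries. With LPS, 6 of 10 members passed, beside 28.3% of all tested genes: Gdf15, Ppp1r15a, Chac1 and Atf4 rose, and Ddit4 and Ddit3 fell. With (GT)6 SWCNT, 6 of the 9 members other than Gdf15 passed, beside 20.4% of all genes: Chac1, Sesn2, Trib3, Ppp1r15a and Atf4 rose, and Ddit4 fell. With COOH SWCNT, 4 of 10 passed, beside 20% of all genes: Gdf15, Chac1, Sesn2 and Ppp1r15a, all higher, the direction of 9.39% of all genes. Gdf15 and Ddit4 were named through these control libraries. Without both, the counts were 4 with LPS, 5 with (GT)6 SWCNT and 3 with COOH SWCNT, beside the same shares of all genes. Between treated and control libraries there was no overlap for 7 of the 10 members with LPS (38.3% of all genes), for 9 of the 9 other than Gdf15 with (GT)6 SWCNT (34.3%) and for 5 of 10 with COOH SWCNT (34.4%). The median log2 difference of the 10 members was 0.16 with LPS, 0.48 with (GT)6 SWCNT and 0.22 with COOH SWCNT, beside -0.01, -0.02 and 0.00 over all tested genes. The (GT)6 SWCNT median includes the value that named Gdf15.

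Among the dyes and AAV, only DiBASC2 had tested members that passed by edgeR's test. With DiBASC2, 3 of 10 passed, beside 5.47% of all genes: Gdf15 and Atf4 fell and Ddit4 rose. Without Gdf15 and Ddit4, which were named through the same control libraries, 1 passed (Atf4). For 4 of 10 (Gdf15, Atf4, Ddit4 and Asns) the DiBASC2 libraries did not overlap control, beside 22.6% of all genes. With Fura-2, none of the 9 members other than Ddit4 passed, by edgeR's test or by DESeq2, beside 0.252% of all genes; none of the 9 had an unadjusted p under 0.05. With Di-2-ANEPEQ, 0 of 10 passed by edgeR's test, beside 3.08% of all genes, and 1 (Ddit4) had an unadjusted p under 0.05. With AAV, 0 of 10 passed by edgeR's test, beside 5.00% of all genes; 3 (Atf4, Ddit4 and Asns) had an unadjusted p under 0.05, and DESeq2 called 1, Asns, as lower (log2 difference -0.15, adjusted p = 0.0366). The AAV libraries did not overlap the control libraries for 4 of the 10 members, beside 24.6% of all tested genes.

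The (GT)6 SWCNT group rested on uneven libraries. Replicate 3, the library with the fewest counts of all 24, was the lowest of its group for Gdf15, Chac1, Sesn2, Ddit4, Trib3, Ddit3, Ppp1r15a and, by a small margin, Atf5. Without it the log2 difference from control was 2.53 for Chac1, 0.83 for Sesn2, 0.70 for Trib3, 0.61 for Ppp1r15a, 0.44 for Atf4 and -0.40 for Ddit4, and all 6 stayed past the threshold. The Gdf15 difference was 3.10 without it.

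Direct comparison with LPS tested whether the nanotubes differed from the positive control. Against LPS, (GT)6 SWCNT libraries had more Ddit3, Chac1, Sesn2 and Trib3 and less Ppp1r15a. These were 5 of the 9 members other than Gdf15, beside 21.6% of all tested genes. The log2 difference from LPS was 1.42 ± 0.23 (SE, adjusted p = 7.11e-06) for Chac1 and 0.91 ± 0.17 (SE, adjusted p = 9.11e-05) for Ddit3. It was 0.81 ± 0.11 (SE, adjusted p = 1.03e-07) for Sesn2 and -0.87 ± 0.07 (SE, adjusted p = 1.69e-13) for Ppp1r15a. Trib3 differed by 0.48 ± 0.14 (SE, adjusted p = 0.00824), a call that was lost without LPS replicate 2 (0.0693). Atf4 was higher in all (GT)6 SWCNT than LPS libraries, by 0.12 ± 0.04, but did not pass (adjusted p = 0.0533). Gdf15 was 2.74-fold lower than with LPS (30.9 ± 4.74 against 85.1 ± 12.8 CPM), which is given without a test.

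COOH SWCNT differed from LPS in 6 of 10 members, beside 37.8% of all tested genes. Ddit4, Ddit3 and Sesn2 were higher than with LPS, and Gdf15, Ppp1r15a and Atf4 were lower. The log2 difference was -2.90 ± 0.10 (SE, adjusted p = 2.89e-23) for Gdf15, 7.49-fold lower. It was -1.11 ± 0.07 (SE, adjusted p = 1.62e-16) for Ppp1r15a and -0.28 ± 0.04 (SE, adjusted p = 2.88e-06) for Atf4. In the other direction it was 0.69 ± 0.12 (SE, adjusted p = 1.67e-05) for Ddit4, 0.67 ± 0.18 (SE, adjusted p = 0.00229) for Ddit3 and 0.57 ± 0.11 (SE, adjusted p = 3.72e-05) for Sesn2. Chac1 did not pass between these groups, at 2.04 ± 0.306 and 1.62 ± 0.346 CPM, with a 95% interval of -0.19 to 0.88 for the log2 difference.

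**Figure D3:**
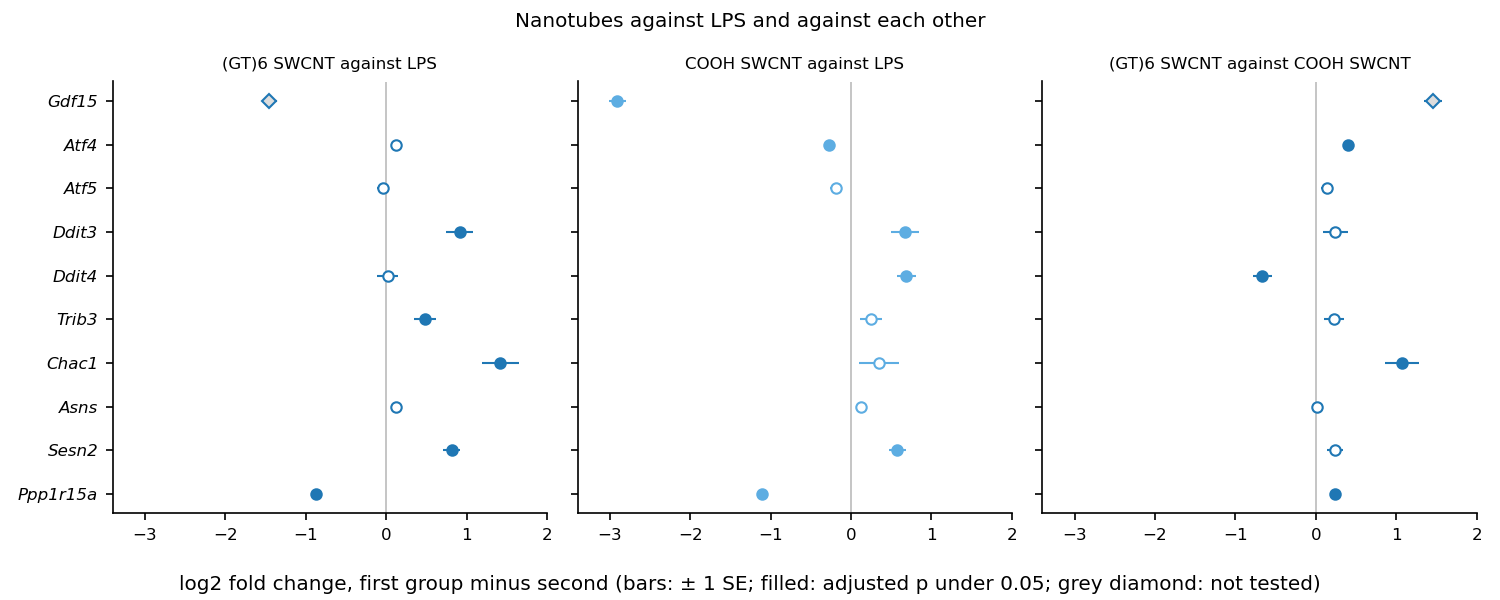
Log2 fold change of the 10 genes (points, with bars of ± 1 SE) for each nanotube against LPS and, in the last panel, (GT)6 SWCNT minus COOH SWCNT; filled points have an adjusted p under 0.05, open points do not, and grey diamonds carry no test. Ppp1r15a lies below 0 in both comparisons with LPS (-0.87 and -1.11), and Sesn2 above 0 (0.81 and 0.57).

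The nanotubes, which carry different surfaces, also differed from each other. Their doses are not given in the sources used here, so the values compare the groups as treated. Of the 9 members other than Gdf15, 4 differed between (GT)6 SWCNT and COOH SWCNT, beside 21.4% of all tested genes. Chac1 was 2.11-fold higher with (GT)6 SWCNT, a log2 difference of 1.07 ± 0.21 (SE, adjusted p = 0.00032). Atf4 was higher by 0.40 ± 0.04 (SE, adjusted p = 2.14e-08), and Ddit4 differed by -0.67 ± 0.12 (SE, adjusted p = 7.52e-05). Ppp1r15a was higher by 0.24 ± 0.07 (SE, adjusted p = 0.0109), but not without (GT)6 SWCNT replicate 2 (0.17, adjusted p = 0.12). Sesn2 did not pass, at 0.24 ± 0.10 (adjusted p = 0.0766), and without (GT)6 SWCNT replicate 3 it was 0.37 (adjusted p = 0.00442). The 95% intervals of the log2 difference were -0.05 to 0.50 for Trib3, -0.09 to 0.57 for Ddit3 and -0.09 to 0.11 for Asns. Gdf15 was 2.74-fold higher with (GT)6 SWCNT, given without a test.

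Among the wider set of ATF4 and CHOP targets, most tested genes did not pass in each of the 7 treatments. Of 48 listed genes, which exclude the members, 40 were tested. With LPS, 14 of the 40 (35%) passed, 8 higher and 6 lower, beside the 28.3% of all genes. With (GT)6 SWCNT, 14 (35%) passed, 11 higher and 3 lower, beside 20.4%. With COOH SWCNT, 7 passed (17.5%), 5 higher and 2 lower, beside 20%. With DiBASC2, 6 (15%) passed, 5 lower and 1 (Klhl24) higher, beside 5.47%. With AAV, 4 (10%) passed beside 5.00%, with Phgdh, Bcat1 and Slc1a5 lower and Ero1l higher. With Di-2-ANEPEQ, 2 (5%) passed beside 3.08%, Bcat1 and Atf3, both lower. With Fura-2, 0 of the 40 passed by edgeR's test or by DESeq2, and 3 had an unadjusted p under 0.05. With 1 library left out, the count ran from 12 to 14 with LPS and from 10 to 13 with (GT)6 SWCNT. It ran from 6 to 8 with COOH SWCNT and from 5 to 6 with DiBASC2. The AAV and Di-2-ANEPEQ counts also moved. For AAV the count was 1 without AAV replicate 2 or 3 or control replicate 3, and 2 without control replicate 2. For Di-2-ANEPEQ it was 0 without its own replicate 2 or control replicate 3, and 1 without its own replicate 3 or control replicate 1 or 2. The median log2 difference of the 40 genes lay between -0.04 and 0.04 in all 7 treatments.

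By role, amino acid genes were called in both directions. Of 18 tested genes of amino acid synthesis and transport, 3 rose and 5 fell with LPS, 4 rose and 2 fell with (GT)6 SWCNT, and 2 rose and 2 fell with COOH SWCNT. These were 44.4%, 33.3% and 22.2% of the list, beside 28.3%, 20.4% and 20% of all tested genes, so the share with COOH SWCNT was near that of all genes. Slc7a11, which imports cystine for glutathione synthesis, rose from 28 ± 1.99 CPM in control to 134 ± 13.9 CPM with LPS, a log2 difference of 2.26 ± 0.07 (SE, adjusted p = 3.77e-26). With (GT)6 SWCNT it stood at 39.5 ± 2.18 CPM, a log2 difference of 0.50 ± 0.07 (SE, adjusted p = 1.03e-06). Slc7a1, a carrier of arginine and lysine, rose by 0.14 ± 0.04, 0.21 ± 0.04 and 0.20 ± 0.04 on the log2 scale with LPS, (GT)6 SWCNT and COOH SWCNT (adjusted p = 0.00755, 0.000228 and 0.000517). With DiBASC2 its log2 difference was -0.20 ± 0.04 (SE, adjusted p = 0.00201), and 4 of the 18 genes (22.2%, beside 5.47% of all genes) fell there and none rose. Slc1a4, a carrier of neutral amino acids, fell with LPS from 4.29 ± 0.568 to 2.74 ± 0.135 CPM, a log2 difference of -0.65 ± 0.20 (SE, adjusted p = 0.0123). Bcat1, which starts the breakdown of branched-chain amino acids, was lower in the 6 treatments other than Fura-2, at log2 differences from -0.25 with LPS to -0.12 with (GT)6 SWCNT; these comparisons share the control libraries, and Bcat1 shares exon bases with Gm26666.

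Of 13 genes of tRNA charging and export, 4 rose with (GT)6 SWCNT (Aars, Cars, Nars and Tars) and none fell, which is 30.8% beside 20.4% of all tested genes. Cars and Aars, which charge the tRNAs of cysteine and alanine, had the highest log2 differences, 0.23 ± 0.04 (SE, adjusted p = 7.99e-05) and 0.15 ± 0.04 (SE, adjusted p = 0.00242); both share exon bases with other genes. In the other 6 treatments 0 of the 13 passed by edgeR's test or by DESeq2. The shares of all tested genes called there by edgeR's test were 28.3% (LPS), 20% (COOH SWCNT), 5.47% (DiBASC2), 5.00% (AAV), 3.08% (Di-2-ANEPEQ) and 0.252% (Fura-2). Over these treatments 5 of the values had an unadjusted p under 0.05. Compared directly, (GT)6 SWCNT had 4 of the 13 higher than LPS and 4 higher than COOH SWCNT, with none lower in either; each is 30.8%, beside 21.6% and 21.4% of all tested genes.

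Of 9 further targets, 5 rose and 1 fell with LPS, 3 rose and 1 fell with (GT)6 SWCNT, and 3 rose with COOH SWCNT. These were 66.7%, 44.4% and 33.3% of the list, beside 28.3%, 20.4% and 20% of all tested genes. Atf3, a stress-induced repressor that also answers inflammatory signals, stood at 97.9 ± 2.69 CPM in control, 426 ± 20.7 with LPS, 253 ± 5.70 with (GT)6 SWCNT and 166 ± 5.91 with COOH SWCNT. Its log2 differences were 2.12 ± 0.04 (SE, adjusted p = 9.61e-31), 1.37 ± 0.04 (SE, adjusted p = 7.79e-24) and 0.76 ± 0.05 (SE, adjusted p = 1.23e-15). It fell with DiBASC2, by a log2 difference of -0.24 ± 0.05 (SE, adjusted p = 0.000985), and with Di-2-ANEPEQ, by -0.17 ± 0.05 (SE, adjusted p = 0.0377). Bbc3, the gene of the death-promoting protein PUMA, rose with (GT)6 SWCNT by 0.43 ± 0.10 (SE, adjusted p = 0.00184). Klhl24 fell with LPS by -0.20 ± 0.07 (SE, adjusted p = 0.0377) and with (GT)6 SWCNT by -0.56 ± 0.07 (SE, adjusted p = 1.67e-07), and rose with DiBASC2 by 0.34 ± 0.07 (SE, adjusted p = 0.00133).

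Upstream of ATF4, the transcripts of the eIF2 kinases moved by small amounts. Of 18 tested genes of the kinases and the eIF2 machinery, 1 rose and 3 fell with LPS, 1 rose and 2 fell with (GT)6 SWCNT, and 2 rose and 4 fell with COOH SWCNT. The shares of 22.2% and 16.7% with LPS and (GT)6 SWCNT were below the 28.3% and 20.4% of all tested genes, and that with COOH SWCNT was 33.3% beside 20%. Eif2ak3, the gene of the endoplasmic reticulum kinase PERK, fell from 19.97 ± 0.467 to 15.4 ± 1.75 CPM with LPS, a log2 difference of -0.38 ± 0.08 (SE, adjusted p = 0.000256), and to 16.2 ± 1.38 CPM with (GT)6 SWCNT, a log2 difference of -0.30 ± 0.08 (SE, adjusted p = 0.00389). Eif2ak4, the gene of the amino acid sensor GCN2, rose with COOH SWCNT by 0.19 ± 0.05 (SE, adjusted p = 0.00662). Eif2ak2, the gene of PKR, fell with LPS, (GT)6 SWCNT and COOH SWCNT by log2 differences of -0.27 ± 0.06, -0.25 ± 0.06 and -0.18 ± 0.06 (adjusted p = 0.000791, 0.00255 and 0.0315). Eif2ak2 and Eif2ak3 share exon bases with other genes.

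The other branches of the unfolded protein response, run by ATF6 and IRE1, gave 4 of 19 genes higher and 2 lower with LPS, 5 and 1 with (GT)6 SWCNT, and 4 and 2 with COOH SWCNT. In each this is 31.6% of the list, beside 28.3%, 20.4% and 20% of all tested genes. Herpud1, a protein of the degradation machinery of the endoplasmic reticulum, rose from 29.9 ± 0.965 CPM in control to 86.6 ± 1.34 with LPS, 52.9 ± 5.33 with (GT)6 SWCNT and 40.4 ± 1.51 with COOH SWCNT. Its log2 differences were 1.53 ± 0.06 (SE, adjusted p = 1.16e-22), 0.82 ± 0.06 (SE, adjusted p = 1.07e-13) and 0.43 ± 0.06 (SE, adjusted p = 1.81e-06). Xbp1, the transcription factor that IRE1 activates by splicing, moved the other way, by -0.55 ± 0.05 (SE, adjusted p = 7.65e-11), -0.30 ± 0.05 (SE, adjusted p = 2.47e-05) and -0.28 ± 0.05 (SE, adjusted p = 0.000134) in the same 3 treatments. Hspa5, the main chaperone of the compartment, rose with LPS and (GT)6 SWCNT, by log2 differences of 0.25 ± 0.04 (SE, adjusted p = 5.4e-07) and 0.14 ± 0.04 (SE, adjusted p = 0.00309). It was lower with DiBASC2, Di-2-ANEPEQ and AAV, with log2 differences of -0.18 ± 0.04, -0.13 ± 0.04 and -0.18 ± 0.04 (adjusted p = 0.000801, 0.027 and 0.00285).

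Because Gdf15 is also a p53 target, 14 tested p53 targets were set beside it. With LPS 6 rose and 2 fell, with (GT)6 SWCNT 5 rose and 2 fell, and with COOH SWCNT 5 rose and 1 fell. With DiBASC2 1 rose and 5 fell. In that order these were 57.1%, 50%, 42.9% and 42.9% of the list, beside 28.3%, 20.4%, 20% and 5.47% of all tested genes. Btg2, an antiproliferative early-response gene, stood at 25.6 ± 0.868 CPM in control, 103 ± 4.70 with LPS, 78.3 ± 3.29 with (GT)6 SWCNT, 50.3 ± 2.95 with COOH SWCNT and 18.1 ± 1.63 with DiBASC2. Its log2 differences were 2.01 ± 0.06 (SE, adjusted p = 6.07e-27), 1.61 ± 0.06 (SE, adjusted p = 8.12e-23), 0.97 ± 0.06 (SE, adjusted p = 1.64e-15) and -0.49 ± 0.06 (SE, adjusted p = 1.64e-06). Plk2, a kinase of the stress response, rose by 1.59 ± 0.04, 1.37 ± 0.04 and 0.81 ± 0.04 with LPS, (GT)6 SWCNT and COOH SWCNT (adjusted p = 1.58e-27, 2.14e-24 and 4.68e-17), and fell with DiBASC2, by a log2 difference of -0.37 ± 0.04 (SE, adjusted p = 1.86e-07). Sesn1 went the other way, by -0.97 ± 0.08, -0.96 ± 0.08 and -0.37 ± 0.08 with LPS, (GT)6 SWCNT and COOH SWCNT (adjusted p = 2.64e-12, 6.14e-12 and 0.000386). With DiBASC2, Sesn1 rose by 0.43 ± 0.07 (SE, adjusted p = 0.000101). Zmat3 fell with LPS (-0.44 ± 0.08, adjusted p = 1.3e-05) and Ei24 with (GT)6 SWCNT (-0.22 ± 0.05, adjusted p = 0.00234).

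**Figure D4:**
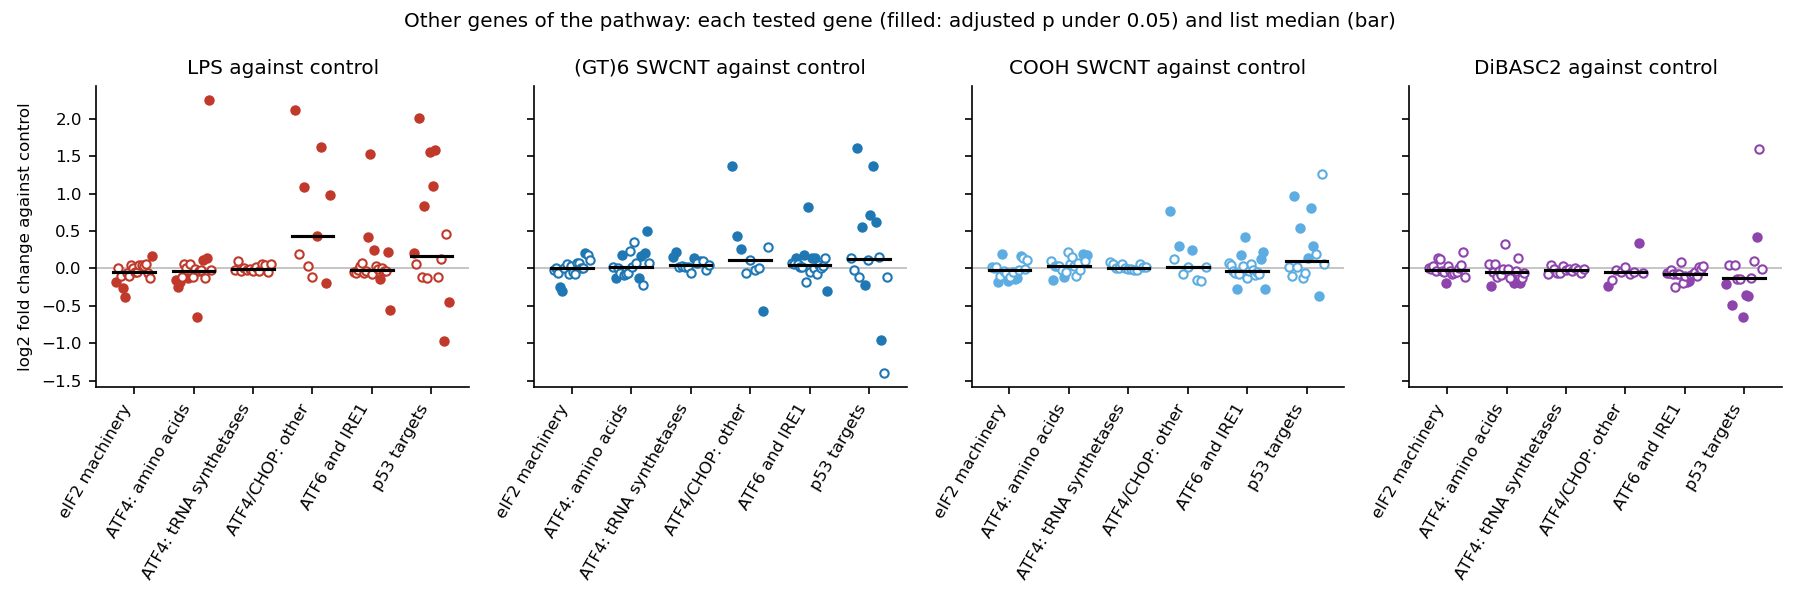
Log2 fold change against control of every tested gene (points) in 6 lists with LPS, (GT)6 SWCNT, COOH SWCNT and DiBASC2; filled points have an adjusted p under 0.05, open points do not, and bars mark list medians. Of the tRNA genes, 4 of 13 are filled with (GT)6 SWCNT, beside 20.4% of all tested genes. In the LPS, COOH SWCNT and DiBASC2 panels 0 are filled, beside 28.3%, 20% and 5.47%. The highest points with LPS are Slc7a11 (2.26), Atf3 (2.12) and Btg2 (2.01).

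On the side of the GDF15 protein, Gfral and Ret, which encode its receptor and co-receptor, did not have enough counts to be tested. Of the 5 listed genes of receptor and processing, 2 were tested. Both passed as higher with LPS, (GT)6 SWCNT and COOH SWCNT, beside 28.3%, 20.4% and 20% of all tested genes. With COOH SWCNT, DESeq2 called 1 of the 2. The gene other than Furin was below the 1 CPM required for naming. Furin, the gene of a protease that cleaves proproteins of this family, rose from 71.3 ± 1.40 CPM in control to 131 ± 7.53 with LPS, 122 ± 4.86 with (GT)6 SWCNT and 111 ± 3.50 with COOH SWCNT. Its log2 differences were 0.88 ± 0.05 (SE, adjusted p = 2.52e-18), 0.78 ± 0.05 (SE, adjusted p = 2.61e-16) and 0.64 ± 0.05 (SE, adjusted p = 2.39e-13). It also passed as higher with Di-2-ANEPEQ, at 0.16 ± 0.05 (SE, adjusted p = 0.0425), and AAV, at 0.17 ± 0.05 (SE, adjusted p = 0.025). It shares exon bases with Gm44851.

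The genes whose group means most resembled those of Gdf15 were sought among the 430 genes with at least 5 CPM and a range of at least 1 log2 unit. By Pearson's r of log2 CPM over the 8 group means, they were Osgin2 (0.998), Dusp2 (0.997), Itga5 (0.996), Slc15a3 (0.996) and Ccl4 (0.996). All points come from the same libraries as Gdf15, so these are descriptions. Dusp2, a phosphatase that switches off MAP kinases, stood at 25.8 ± 1.55 CPM in control, 153 ± 1.76 with LPS, 74.6 ± 4.05 with (GT)6 SWCNT, 46.4 ± 2.00 with COOH SWCNT and 16.7 ± 0.325 with DiBASC2. Ccl4, a chemokine, stood at 53 ± 6.40, 589 ± 71.7, 269 ± 16.8, 143 ± 8.34 and 27.9 ± 0.331 CPM in the same groups. Itga5, the fibronectin receptor's alpha subunit, stood at 181 ± 5.54, 602 ± 11.2, 399 ± 30.4, 298 ± 12.7 and 154 ± 4.38 CPM. All 5 genes held the order LPS, (GT)6 SWCNT, COOH SWCNT, control and DiBASC2 seen for Gdf15. They were chosen for that likeness, so the shared order is no separate result. Among the members, the same r to Gdf15 was 0.95 for Ppp1r15a, 0.91 for Atf4, 0.75 for Atf5 and 0.73 for Chac1. It was 0.55 for Asns, 0.54 for Trib3, 0.21 for Sesn2, -0.08 for Ddit3 and -0.91 for Ddit4. The members were not held to the range of 1 log2 unit. The range was 0.22 for Atf5, 0.27 for Asns, 0.58 for Trib3, 0.68 for Atf4, 0.78 for Sesn2 and 0.89 for Ddit3.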

How the data were processed

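Poly-A RNA of SIM-A9 cells was counted in 24 libraries of 8 groups. The authors deposited raw read counts per Ensembl gene identifier, 54838 in all. The submitters' processing notes name STAR 2.5.4b and GRCm38.p6 with no role; the counting tool, strand setting and annotation release are not given in the sources used here. Symbols, positions and exon lengths came from GENCODE M21 (GRCm38), matched on identifiers (54723 matched without their version, 115 did not), and promoter windows from RefSeq (GRCm38.p6). The members and gene lists were chosen with earlier results of these data known.

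Counts were fitted with edgeR 4.0.16 in R 4.3.3: filterByExpr (13116 genes), TMM factors, 1 mean per group over all 24 libraries (16 residual degrees of freedom) and two-sided glmQLFTest in 10 contrasts. Calls required an adjusted p under 0.05 (Benjamini-Hochberg, over all tested genes of a contrast). SE is the absolute log2 fold change divided by the square root of F, and 95% intervals use the t distribution with the 16 residual degrees of freedom. These intervals are somewhat wider than the quasi-likelihood test implies. Asns with COOH SWCNT against control had an unadjusted p of 0.0483 by that test and an interval of -0.0036 to 0.201. Every adjusted p comes from this test unless DESeq2 (1.42.0) is named. CPM is the count divided by the TMM-scaled library size, times 1000000. From each list, the 2 highest and 2 lowest called genes of at least 1 CPM per treatment could be named, and the text gives a selection of them. The 5 genes most like Gdf15 were named by r. The edgeR fit was tested on simulated counts that gave every gene the same spread. Changes as small as many of those called here, or in genes as rare as Chac1 in control libraries, were not simulated. Each library counted separately. Replicates differed from each other beyond sampling noise (chi-square per degree of freedom 2.44 to 19 over 24 pairs), which does not show that they came from separate cultures. The coefficient of variation that edgeR terms biological was 4.12%. Alternatives were other scaling factors, low-count filters, a replicate block, fits of only the groups compared, DESeq2, and leaving out each library.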

Additional observations from a re-analysis of the deposited data

How the results depend on the processing

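Across the other settings, 659 of 684 member values kept their status (called or not called), 3 lost a call, 22 gained one and no called value reversed. With 1 library left out, 573 of 600 kept their status, 17 lost a call, 10 gained one and no called value reversed. Values called in neither fit count as kept, and their signs were not compared. These totals include the Gdf15 and Ddit4 values that are given without a test, and are no support for those values. The count of members called with AAV (0) was 1 with upper-quartile factors, with no low-count filter, with a mean of at least 50 counts and with DESeq2, 2 when only the groups compared were fitted, and 0 to 1 with a library left out (1 without AAV replicate 1). The gene was Ddit4 with no filter and Asns in the other cases, and both when only the groups compared were fitted. For Fura-2, none of the members other than Ddit4 was called in the main fit, with DESeq2 or in the 6 fits that left out a library. Ddit4 was named by its Fura-2 value and carries no test there. The count of ATF4 and CHOP targets with Fura-2 (0) was 1 with no low-count filter and 1 when only the groups compared were fitted. With a library left out, the same count ran from 0 to 2 for Di-2-ANEPEQ and from 1 to 3 for AAV. In such fits the members called ran from 4 to 7 with LPS, beside 6 in the main fit. They ran from 4 to 6 with COOH SWCNT (main fit 4) and from 2 to 3 with DiBASC2 (main fit 3). The cause of these shifts was not tested. Chac1 had too few reads for the filter of 50 counts, and at 14 to 23 counts in control libraries its level there is the least precise of the members.

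Replicate numbers come from the titles and nothing says what they share. Deviations of same-numbered libraries from their group means correlated at -0.10 to 0.07, those of other pairs at -0.12 to 0.11, and 5 of 24 libraries were closest to their own number. Same-numbered libraries thus deviated together no more than other pairs. Whether they share more than a number was not tested. With the replicate block no member other than Ddit4 was called with Fura-2, and no call of the member values tested here changed.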

Other observations

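The sestrins, which restrain mTORC1, did not move together; this pair was set side by side after their values were seen. With (GT)6 SWCNT, Sesn2 rose by a log2 difference of 0.70 ± 0.10 (SE, adjusted p = 1.84e-06), while Sesn1, a p53 target, fell from 19.1 ± 0.949 to 9.86 ± 0.645 CPM, a log2 difference of -0.96 ± 0.08 (SE, adjusted p = 6.14e-12). COOH SWCNT gave 0.46 ± 0.10 (SE, adjusted p = 0.00131) for Sesn2 and -0.37 ± 0.08 (SE, adjusted p = 0.000386) for Sesn1. With LPS, Sesn1 differed by -0.97 ± 0.08 (SE, adjusted p = 2.64e-12) and Sesn2 did not pass (-0.11 ± 0.11). DiBASC2 raised Sesn1 to 25.7 ± 1.39 CPM, a log2 difference of 0.43 ± 0.07 (SE, adjusted p = 0.000101).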
